A study of Mus musculus with 2 samples.

Results

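The positions of 38 imprinted genes of the mouse were set against the domain boundaries of immediate neuronal precursors, the dividing cells of the olfactory epithelium from which sensory neurons arise. The genes are a list of well-known imprinted genes, and no distance, score or other boundary value served as a criterion for membership. They were a small subset of the 31358 protein-coding and long noncoding RNA (lncRNA) genes whose starts were measured in the same way. They lie in 17 loci on 10 chromosomes, 34 of them are protein-coding and 4 are lncRNAs (H19, Meg3, Airn and Kcnq1ot1), and 17 of them are on chromosome 7.

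The cells were primary cells of FVB/NTac pups of mixed sex, sorted by fluorescence from Ngn1-GFP mice, in which a fluorescent protein reports the neurogenic factor Ngn1, as the population that the sort plot calls P4. The labels give no modification or treatment, no age beyond pup and no number of animals. In situ Hi-C, which ligates and sequences DNA ends that lie close together in the fixed nucleus, was done with the enzyme DpnII on 2 biological replicates. They held 2200000 and 2100000 cells, and fixation was in 1% formaldehyde for 10 min. Both replicates were combined before boundaries were called, and there was a single group, so no value below has a replicate error and no condition is compared with another. The list does not tell the parental copies of a chromosome apart, so each boundary stands for both. Marker genes of the sorted cells could not be examined, because expression was not analysed here.

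An imprinted gene is expressed from the copy inherited from the mother or from the father, but not equally from both. Most such genes lie in clusters, in which a control region methylated in the egg or in sperm sets the expression of several neighbours, often through a noncoding RNA or through the insulator protein CTCF, which binds only the unmethylated copy. In the nervous system, imprinted genes act in neuronal growth, feeding behaviour and signalling. Some of them, such as Ube3a, Grb10 and Dlk1, gain, change or lose their imprint there. The expressed allele named for each gene is general knowledge of the mouse and was not measured in these cells.

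A boundary here is a 5 kb interval of the deposited list, which holds 7841 of them, each with a class and a score that is the authors' own value. The 4137 strong boundaries score from 0.5 and the 3704 weak boundaries from 0.2, the median score is 0.533 and the highest is 3.78. The distance of a gene is that from its start, the 5′ end of its GENCODE M21 gene model on GRCm38, to the nearer edge of the nearest interval, and it is 0 inside the interval. A domain is the stretch between neighbouring boundaries, and genes share a domain where no interval begins between their starts.

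The control region between H19 and Igf2 is the textbook case of imprinting through CTCF, and it is shown because the list has no boundary there. The reference sequence held 4 matches to CCGCNNGGNGGC, the core letters of the CTCF sites of that control region, between 2.17 and 3.89 kb upstream of the H19 start. All 4 lie on the minus strand, the strand of both genes, within 1737 bases. The capitals mark the match, and each sequence reads 5′ to 3′ on its strand of GRCm38.p6.
H19 upstream match, 2.17 kb upstream, chr7:142580297-142580336, minus strand: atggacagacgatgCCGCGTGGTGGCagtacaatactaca
H19 upstream match, 2.62 kb upstream, chr7:142580752-142580791, minus strand: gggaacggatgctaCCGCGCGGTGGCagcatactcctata
H19 upstream match, 3.65 kb upstream, chr7:142581778-142581817, minus strand: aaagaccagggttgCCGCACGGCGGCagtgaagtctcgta
H19 upstream match, 3.89 kb upstream, chr7:142582022-142582061, minus strand: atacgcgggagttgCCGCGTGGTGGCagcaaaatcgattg
Stretches as short with as many matches occurred at 3 places in the reference, this one included, and the motif had 3887 matches in all on both strands. The 4 matches lie 125 kb or more from the nearest listed boundary, which scores 0.225 and closes the domain on the far side of H19. A 5th match lies 81.4 kb upstream of the H19 start, within the Igf2 gene. The core CTCF consensus had 0 matches between the starts of H19 and Igf2. A match describes these letters only and shows no binding.

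The boundary between Cdkn1c and Slc22a18 parts the closest split pair of imprinted genes, and the sequences around it are shown for that reason. The interval itself, chr7:143470001-143475000, held 0 matches to the core CTCF consensus. It had 2 matches on the minus strand on its Cdkn1c side and 1 on the plus strand on its Slc22a18 side, all within 10 kb. Capitals mark the match to the core consensus.
Cdkn1c side, 5.91 kb from the interval, chr7:143464066-143464105, minus strand: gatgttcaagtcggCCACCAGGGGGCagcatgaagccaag
Cdkn1c side, 3.49 kb from the interval, chr7:143466484-143466523, minus strand: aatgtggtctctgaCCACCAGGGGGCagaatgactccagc
Slc22a18 side, 5.7 kb from the interval, chr7:143480686-143480725, plus strand: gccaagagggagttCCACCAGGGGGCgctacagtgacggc
The Cdkn1c start is 3.03 kb from the nearest of these matches, and the Slc22a18 start is 6.96 kb from the match on its side.

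The remaining matches shown are at borders that cut a gene or close a cluster: the strong boundary inside Usp29, scored 0.828, and the strong boundary before Dlk1, scored 0.528. Capitals mark the match to the core CTCF consensus.
Usp29 boundary, inside the interval, chr7:6940921-6940960, plus strand: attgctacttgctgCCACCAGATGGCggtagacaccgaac
Usp29 boundary, 2.67 kb from the interval, chr7:6937302-6937341, minus strand: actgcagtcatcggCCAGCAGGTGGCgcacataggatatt
Dlk1 boundary, inside the interval, chr12:109393996-109394035, minus strand: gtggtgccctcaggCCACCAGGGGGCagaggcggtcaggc
Of the 38 borders of the domains that hold the imprinted genes, 3 held a core match inside the interval, which is 7.89%, against 6.9% of all boundaries and 2.41% of all 5 kb bins. The 3 borders were those of Dlk1, H13 and Usp29. Within 10 kb of the interval, 10 of the 38 borders had a match, which is 26.3%, against 26% of all boundaries and 11% of all bins. These shares are close to those of the whole list. For CCGCNNGGNGGC, 0 of the 38 borders had a match inside and 3 (7.89%) had a match within 10 kb, against 6.86% of all boundaries and 3.5% of bins. Those 3 borders were next to Zdbf2, Zrsr1 and Copg2.

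H13, which encodes signal peptide peptidase, has its start inside a boundary interval, and its promoter is shown because the core CTCF match lies 71 bases before the start of the gene model. The window is that of the RefSeq promoter table for GRCm38.p6, from 250 bases before to 50 bases after a start that here equals the start of the GENCODE model. Capitals mark the match.
H13 promoter, chr2:152669211-152669510, plus strand: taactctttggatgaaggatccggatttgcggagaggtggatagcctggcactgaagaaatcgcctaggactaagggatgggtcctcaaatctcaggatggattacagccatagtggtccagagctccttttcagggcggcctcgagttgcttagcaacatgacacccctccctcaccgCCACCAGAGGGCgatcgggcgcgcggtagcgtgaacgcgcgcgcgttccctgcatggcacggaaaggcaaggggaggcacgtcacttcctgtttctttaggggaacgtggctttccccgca
It was the sole promoter with a core match among the 31 imprinted genes with an entry in the promoter table, where 0.557% of all 32851 promoters had one. The boundary over it is weak, with a score of 0.264. The letters TGCCGC, which the zinc finger protein ZFP57 reads at methylated control regions, were searched on both strands of the same promoters. With 1 promoter per gene, the entry nearest to its GENCODE start, they occurred in 7 of the 31, those of Copg2, Grb10, Mcts2, Meg3, Nnat, Plagl1 and Zim1. This is 22.6% (Wilson 95% interval 11.4 to 39.8%), against 11.6% of all promoters of the table. A further 4 genes, Igf2, Mest, Snrpn and Zdbf2, had the letters in another of their promoter entries, which makes 11 of the 31 over all entries. The background of 11.6% counts single promoter entries and is not a counterpart of this count. The imprinted promoters held a median of 17 CG dinucleotides and all promoters a median of 7. The part of CG content in the share with TGCCGC was not tested. The genes Cdkn1c, Ins2, Peg10, H19, Rtl1, Impact and Sgce had no entry.

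Few imprinted gene starts lay at a boundary. A boundary was within 10 kb of 5 of the 38 starts, which is 13.2% (Wilson 95% interval 5.75 to 27.3%), against 14.8% of all 31358 coding and lncRNA starts. The 5 genes were Ins2, Slc22a18 and H13, with starts inside an interval, Peg12 at 0.491 kb and Cdkn1c at 8.95 kb. The share of the imprinted genes was close to that of all genes, and the interval, which covers counting error only and takes genes as independent, holds the background. Among coding genes, 5 of 34 imprinted starts (14.7%) were within 10 kb, against 16.4% of all 21755 coding starts. Of the 4 imprinted lncRNAs, 0 were near a boundary (interval 0 to 49.0%), too few to set them apart from the 14.8% of all starts. No share was computed for lncRNA starts alone. The distances of the 4 were 61.3 kb for Airn, 123 kb for H19, 137 kb for Kcnq1ot1 and 146 kb for Meg3. A strong boundary was within 10 kb of 3 of the 38 (7.89%), Ins2, Slc22a18 and Cdkn1c, against 9.45% of all starts.

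The other starts spread widely, with 15 genes between 10 and 50 kb, 8 between 50 and 100 kb and 10 beyond 100 kb. The median distance was 45.2 kb for the imprinted genes and 58.7 kb for all genes, and for coding genes alone 39.3 kb and 55.3 kb. Just outside 10 kb came Peg10 at 12.7 kb, Sgce at 12.8 kb, Zrsr1 at 13 kb and Mcts2 at 17.0 kb. The largest distances were those of Mest at 316 kb and Rtl1 at 205 kb. The 24 genes usually expressed from the paternal allele had a median distance of 55.5 kb with 2 within 10 kb, and the 10 maternal ones had a median of 47.0 kb with 2 within 10 kb. These ranges overlapped, from 0 to 316 kb and from 0 to 186 kb, and no order of the alleles can be read from them.

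**Figure D1:**
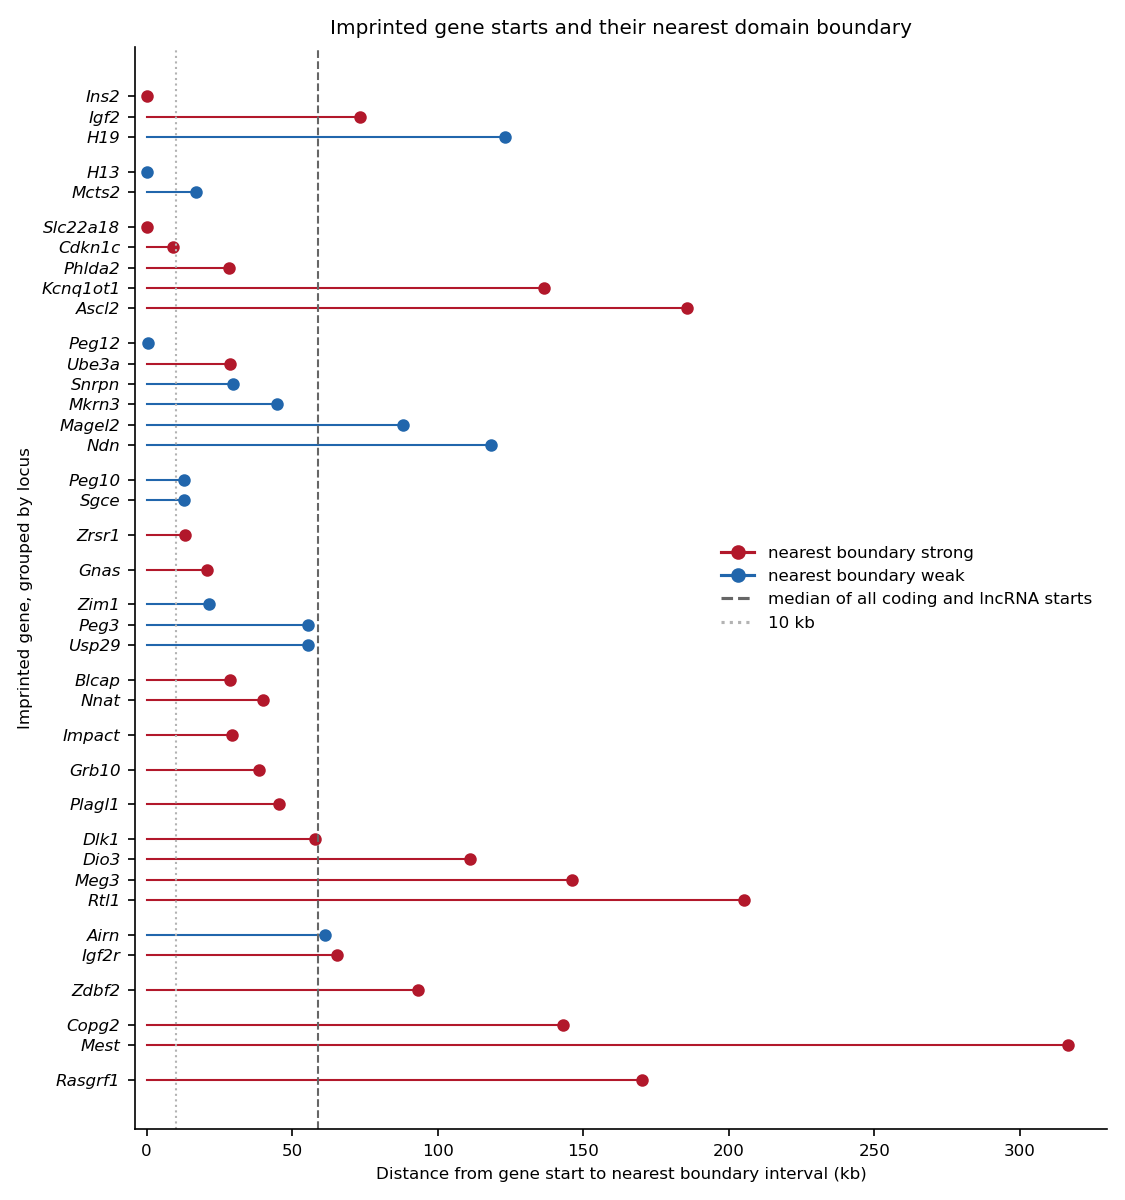
Distance in kb from each of the 38 imprinted gene starts to the nearest boundary interval, grouped by locus and coloured by the class of that boundary, with the median of all starts (58.7 kb) dashed and 10 kb dotted. Only 5 points lie left of the dotted line, and Mest at 316 kb lies farthest out.

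The 38 genes occupied 21 domains with 38 distinct borders, of which 24 (63.2%, interval 47.3 to 76.6%) were strong, against 52.8% of the list. The median score of the borders was 0.713 against 0.533, and 8 of the 38 were in the top 10% of scores. The interval of the strong share includes the share of the list. The borders of the imprinted genes flank a domain with at least 1 gene by construction, whereas many domains of the list hold no coding start. The part of this in the scores was not tested. The domains were of ordinary size, with a median per gene of 280 kb both for imprinted genes and for all genes, and 7 of the 21 (33.3%) had strong borders on both sides against 27.7% of all domains. They held a median of 3 coding starts against 2 in all domains, a comparison in which imprinted domains start with at least 1 gene.

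A boundary interval lay within the body of 10 of the 38 genes (26.3%, interval 15.0 to 42.0%), against 14.8% of all coding and lncRNA genes. The 10 were Grb10, Airn, Impact, H13, Gnas, Peg10, Zim1, Usp29, Ins2 and Slc22a18. Longer genes have more room for an interval, and the 10 genes had a median length of 50.8 kb, against 25.4 kb for all 38 and 13.3 kb for all coding and lncRNA genes. The part of length in this share was not tested.

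Imprinted neighbours mostly shared a domain. Of the 21 pairs of neighbouring imprinted genes within a locus, 16 (76.2%, interval 54.9 to 89.4%) had no boundary between their starts. Had each pair shared a domain as often as all pairs of gene starts in its distance class, 13.35 would have done so. This lies within the interval of the observed count. That interval takes pairs as independent, although successive pairs of a locus share a gene. Averaged by locus, the share was 84.7%. By distance, 2 of 2 pairs under 1 kb apart shared a domain, against 99.6% of all pairs, and 8 of 9 pairs at 10 to 50 kb did, against 85.4%. At 50 to 100 kb it was 3 of 4 against 69.0%, and at 100 to 250 kb 2 of 2 against 37.1%. At 250 to 1000 kb it was 1 of 3 against 5.18%, and at 1000 to 2500 kb 0 of 1 against 1.09%. The classes hold too few imprinted pairs to set any of them apart from all pairs.

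Pairs expressed from opposite alleles shared a domain in 8 of 9 cases, among them H19 with Igf2, Airn with Igf2r, Meg3 with both of its neighbours and Ube3a with Snrpn. The exception was Ascl2 with Kcnq1ot1. Pairs expressed from the same allele did so in 6 of 10 cases. The remaining 2 pairs, H13 with Mcts2 and Nnat with Blcap, include a gene imprinted by isoform, and both shared a domain. The 95% intervals of the opposite and same groups, 56.5 to 98.0% and 31.3 to 83.2%, overlap, and the distances between starts were not equal in them. Both pairs under 1 kb apart, where 99.6% of all pairs share a domain, are of the same allele. Both pairs at 100 to 250 kb, where 37.1% do, are of opposite alleles. The share of all pairs at like distances was not computed for each group, so no order of the groups can be read from these counts. With RefSeq starts, which part Ube3a from Snrpn and join Igf2 to Ins2, the counts of opposite and same pairs were 7 of 9 and 7 of 10.

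**Figure D2:**
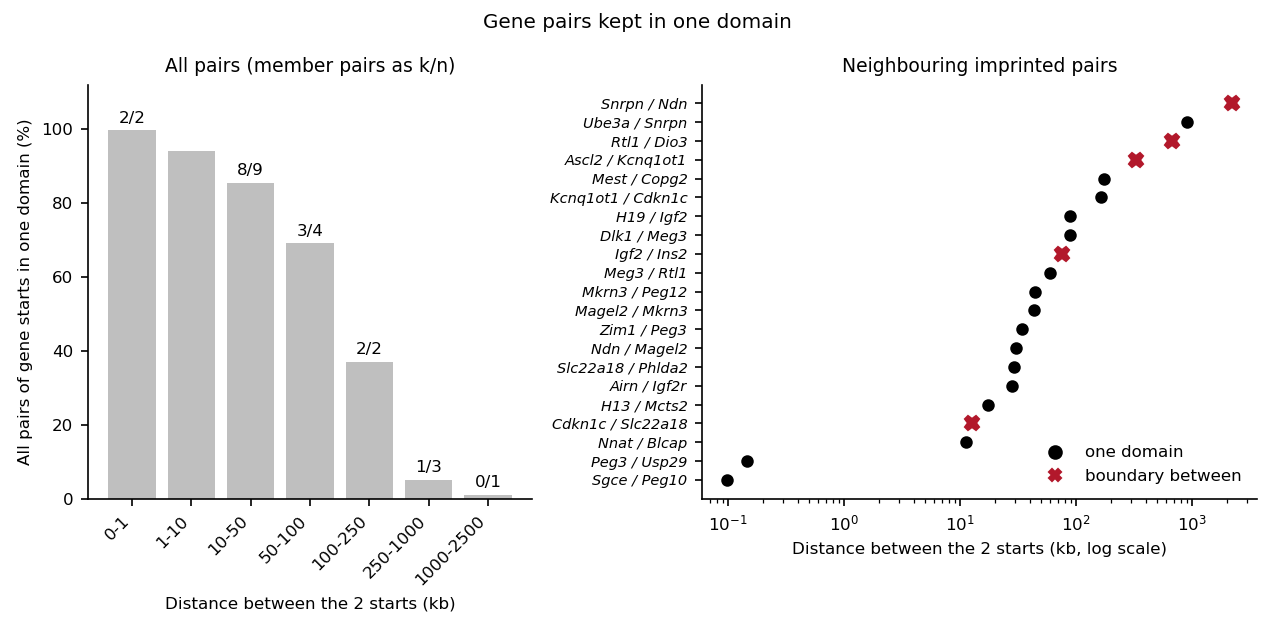
Left, the percent of all pairs of gene starts that share a domain by distance between the starts in kb (grey bars), with the imprinted pairs that do so as k/n above; right, each of the 21 neighbouring imprinted pairs at its distance in kb on a log scale. Circles mark pairs in the same domain and crosses the 5 pairs with a boundary between, which range from 12.7 to 2206 kb apart.

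Of the 10 loci with at least 2 of the genes, 6 were held whole in a single domain by their starts: Igf2r with Airn, Mcts2 with H13, Nnat with Blcap, Peg10 with Sgce, Mest with Copg2, and the Peg3 locus. All of these but the Mest locus (173 kb) span 34.1 kb or less between their outermost starts. Of all pairs of starts, 85.4% share a domain at 10 to 50 kb and 99.6% under 1 kb. No share of whole groups over all genes was computed, so the count of 6 has no background. It includes Mcts2 with H13, although H13 starts inside an interval. With loci left out where a boundary lies within 10 kb of an outermost start, 5 of 7 were whole. The split loci were Igf2 with H19 and Ins2, the Kcnq1ot1 locus, Snrpn with Ube3a, and Dlk1 with Dio3. When whole gene bodies were required to be free of a boundary, the number of whole loci was 2 and that of pairs 10, because intervals inside H13, Airn, Peg10, Zim1, Usp29 and Slc22a18 then count.

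On distal chromosome 7, 3 strong boundaries cut a region of 925 kb that holds 8 imprinted genes under the control of 2 separate control regions. H19, a growth-restraining lncRNA expressed from the maternal copy, and Igf2, a growth factor expressed from the paternal copy, start 88.7 kb apart and share a domain of 285 kb. H19 is 123 kb from its nearest boundary, the weak one at chr7:142450001-142455000 with a score of 0.225. Igf2 is 73.2 kb from its nearest, the strong one at chr7:142740001-142745000 with a score of 1.17, which ranks 1012 of 7841. Beyond the weak border, the next coding start is that of Tnni2, a muscle troponin, at 8.19 kb.

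Ins2, which encodes a preproinsulin, has its gene model start inside the strong boundary, but the value rests on a single transcript. Of the 9 annotated Ins2 transcript starts, 1 is in the interval and 8 lie 40.5 to 60.5 kb away, in the domain of H19 and Igf2. The RefSeq start, at position 142679726, lies 60.3 kb from the boundary. With that start Ins2 shares the domain of Igf2, and the locus is held whole. The strong boundary then stands between Ins2 and the next coding gene, Th, the tyrosine hydroxylase gene, which starts 186 kb beyond it.

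Ascl2, a transcription factor of the placental lineage, starts 186 kb from the next boundary, chr7:143155001-143160000, which scores 0.811 and lies in an intron of Kcnq1. This boundary parts Ascl2 from Kcnq1ot1, the antisense lncRNA that silences the cluster on the paternal chromosome and starts 137 kb beyond it. The Kcnq1 start lies 48.6 kb on the Ascl2 side, so the gene body of this potassium channel spans the boundary. Kcnq1ot1 and Cdkn1c, the maternally expressed cell cycle inhibitor, start 165 kb apart and share a domain of 310 kb, in which Cdkn1c is the sole coding start.

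The boundary that closes that domain, chr7:143470001-143475000, scores 0.983 and ranks 1613. Cdkn1c starts before it at 8.95 kb, Slc22a18, a transporter gene, starts within it, and Phlda2, a restraint on placental growth, starts 28.2 kb after it. Cdkn1c and Slc22a18 start 12.7 kb apart and were the sole split pair of 9 at 10 to 50 kb. All 5 Slc22a18 transcript starts lie within 0.101 kb of the interval or inside it, and the 5 of Cdkn1c lie between 8.95 and 10.7 kb, so the split did not depend on which start was used. A start inside an interval of 5 kb is on the far side by the rule used here, and its true side cannot be told at this width. Slc22a18 and Phlda2 share a domain of 220 kb with 7 coding starts, closed by a weak boundary of score 0.205.

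**Figure D3:**
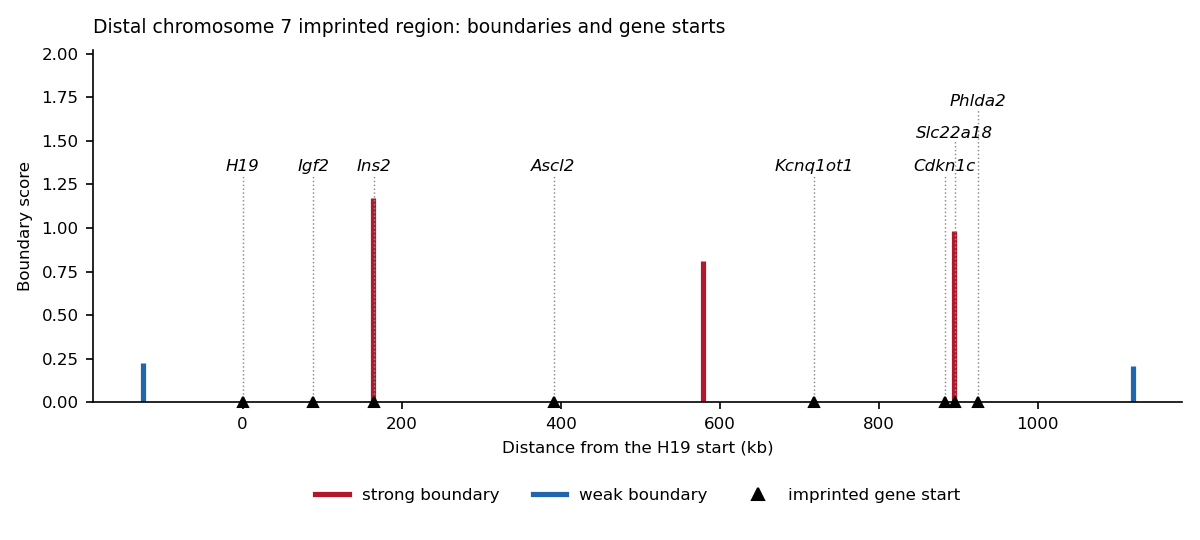
Boundaries of distal chromosome 7 as bars, with their score as height, and the starts of 8 imprinted genes as triangles, by distance from the H19 start in kb. The 3 strong boundaries, scored 1.17, 0.811 and 0.983, part H19 with Igf2 from Ascl2, from Kcnq1ot1 with Cdkn1c and from Phlda2, and Ins2 and Slc22a18 sit on an interval.

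The Snrpn and Ube3a locus, whose human counterpart is the Prader-Willi and Angelman region, fell into distant domains. Ube3a, a ubiquitin ligase expressed from the maternal copy in neurons, starts 28.8 kb from a strong boundary of score 0.583. Snrpn, which encodes a splicing protein and is expressed from the paternal copy, starts 29.8 kb from a weak boundary of score 0.402 at chr7:60170001-60175000. That value rests on 1 of its 2 annotated transcript starts, and the other lies 165 kb from the boundary in the same domain. By their gene models, Ube3a and Snrpn start 911 kb apart and share a domain of 970 kb, which ranks 136 of 7821 by size. This was the single shared pair of 3 at 250 to 1000 kb.

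That domain is richer in repeats than the other domains of imprinted genes. Repeats were masked over 55.3% of it, and 42.9% of its 50-base words occurred more than once within it. In the other 20 domains the share of repeated words ranged from 0.0781 to 8.35% and the masked share from 13.9 to 31.4%. Unassembled sequence made up 5.1% of it, less than the 7.69% of the domain of Mest and Copg2. Reads from repeated sequence are hard to place, and the part of this in the size of the domain was not tested. The RefSeq Snrpn start lies 310 kb farther upstream, at position 60450177, beyond 2 weak boundaries scored 0.402 and 0.243, and with it Ube3a and Snrpn are split.

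Snrpn and Ndn start 2206 kb apart with 5 boundaries between them, of which 2 are strong with scores of 0.885 and 0.647. Ndn and Magel2, of the MAGE family, Mkrn3, a ring finger protein, and Peg12, of the Frat family, all paternally expressed, shared a domain of 280 kb that holds no other coding start. Its borders score 0.647 and 0.429. Peg12 starts 0.491 kb from the weak border, and Mkrn3, Magel2 and Ndn follow at 44.9, 88.0 and 118 kb. Each of these 4 genes has a single annotated transcript start. The next coding start beyond the weak border is A26c2, at 354 kb.

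In the Dlk1 and Dio3 locus the noncoding RNA and its coding neighbours stayed together and Dio3 stood apart. Dlk1, a membrane protein related to Notch ligands, starts 57.8 kb from the strong boundary scored 0.528. Meg3, the maternally expressed lncRNA, starts 146 kb from it, and Rtl1, a retrotransposon-derived gene with a role in placenta, 205 kb. All 3 are in a domain of 595 kb with 2 coding starts. A weak boundary of score 0.308 at chr12:109990001-109995000 parts Rtl1 from Dio3, the deiodinase that inactivates thyroid hormone, with 390 kb to the Rtl1 start and 284 kb to the Dio3 start. With strong boundaries alone this locus is held whole. Dio3 is the sole coding start of a domain of 395 kb, which ends 111 kb beyond it at a boundary of score 2.20, ranked 67 of 7841.

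The Peg3 locus was compact. Zim1, a maternally expressed zinc finger gene, starts 21.5 kb from the weak boundary scored 0.491, whose interval overlaps a Zim1 exon. Peg3, a paternally expressed zinc finger gene, and Usp29, a ubiquitin protease, start 0.147 kb apart in opposite directions at 55.4 and 55.6 kb from it. The 3 are the only coding starts of a domain of 265 kb. The other border, scored 0.828, lies in an intron of Usp29, 209 kb from its start.

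**Figure D4:**
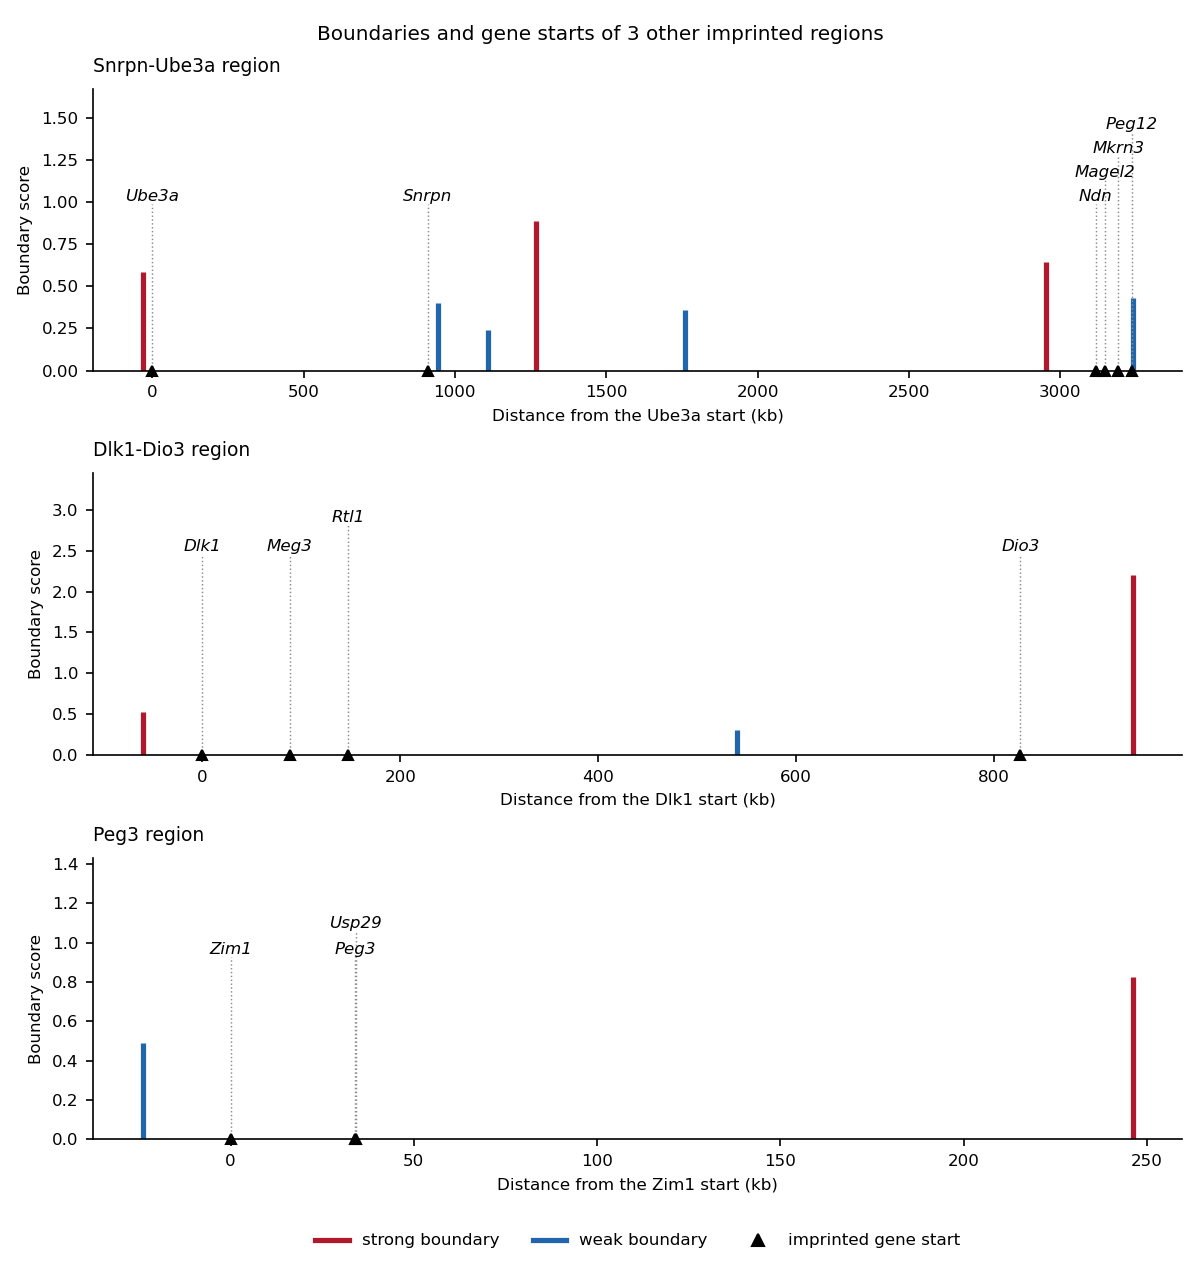
Boundaries as bars, with score as height, and imprinted gene starts as triangles in 3 regions, by distance in kb from the leftmost imprinted start. Snrpn and Ndn are parted by 5 boundaries, Rtl1 and Dio3 by a weak one scored 0.308, and Zim1, Peg3 and Usp29 by none.

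Igf2r, the receptor that clears Igf2, and Airn, the antisense lncRNA that silences it on the paternal copy, start 28.4 kb apart in a domain of 155 kb. Igf2r is 65.3 kb from the strong border scored 0.678, which lies in an intron of Airn, and Airn is 61.3 kb from the weak border scored 0.369. The Airn transcript starts all lie in that domain, while its gene body runs across the strong border.

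H13 and Mcts2, a retrogene in an intron of H13 related to a translation factor, share a domain of 180 kb with 6 coding starts. H13 starts in its weak border, Mcts2 lies 17.0 kb from it, and the other border scores 1.52. The true side of the H13 start cannot be told at this width, so the shared domain rests on the rule used here. Nnat, a small membrane protein of neurons, and its host gene Blcap share a domain of 135 kb with no other coding start, 39.9 and 28.7 kb from a strong border of score 1.35. Peg10, which derives from a retrotransposon, and Sgce, a sarcoglycan, start 0.099 kb apart. They lie 12.7 and 12.8 kb from a weak border of score 0.220 that overlaps a Peg10 exon. The nearest strong boundary is 658 kb away from both, the farthest in the set. Mest, a hydrolase, and Copg2, a coatomer subunit, lie 316 and 143 kb from a strong border of score 1.10, in a domain of 640 kb with 12 coding starts.

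The remaining 7 genes are single members of their loci. Gnas, which encodes the stimulatory G protein subunit and carries several promoters with different imprints, starts 20.7 kb from the boundary at chr2:174305001-174310000. Its score of 2.42 ranks 33 of 7841, the highest rank among the borders of the imprinted genes, and it lies in an intron of Gnas. Of the 16 annotated Gnas transcript starts, 4 lie before it and 12 after it, at distances from 7.14 to 34.7 kb. The most upstream of them is the start of the gene model, and the annotation used here does not say which imprint each start carries.

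Grb10, a growth-restraining adaptor of receptor kinases whose imprint differs between neurons and other tissues, starts 38.7 kb from a boundary in its own intron, scored 0.994. Its 9 transcript starts fall on both sides, 5 in the domain of the gene start and 4 in the next. Grb10 is the sole coding start of its domain of 285 kb. Impact, an inhibitor of the kinase GCN2 that is abundant in neurons, starts 29.1 kb from a boundary of score 1.73, ranked 258, which overlaps an Impact exon. Of its 9 transcript starts, 2 lie in that interval.

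Zrsr1, a retrogene related to a splicing factor, starts 13 kb from a boundary scored 1.34, and the gene that hosts it, Commd1, starts 2.62 kb from the same interval. Plagl1, a zinc finger transcription factor, starts 45.5 kb from a boundary scored 1.49. That value rests on 1 of its 11 transcript starts, the others lie 75.7 to 101 kb from the boundary, and the RefSeq start lies 75.8 kb from it. Zdbf2, a zinc finger gene, starts 93.3 kb from a boundary scored 1.52. By its RefSeq start, Zdbf2 is 20.4 kb from the same boundary. Rasgrf1, a neuronal activator of Ras, starts 170 kb from its nearest boundary, scored 0.749, in a domain of 400 kb with strong borders on both sides.

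In 5 genes, Gnas, Grb10, Impact, Ins2 and Usp29, the annotated transcript starts were spread over more than 1 domain by the rule used here. For Impact and Ins2 this rests on starts inside an interval, whose true side cannot be told. No such share was computed over all genes, so the count of 5 has no background. For Usp29, 7 starts lie in the domain of Peg3 and 2 beyond the boundary, the nearer 2.60 kb from it. With the transcript start nearest to a boundary in place of the gene start, 8 of 38 genes (21.1%) were within 10 kb, the additional genes being Gnas, Impact and Usp29. The background of 14.8% counts 1 start per gene and is not a counterpart of this share.

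**Figure D5:**
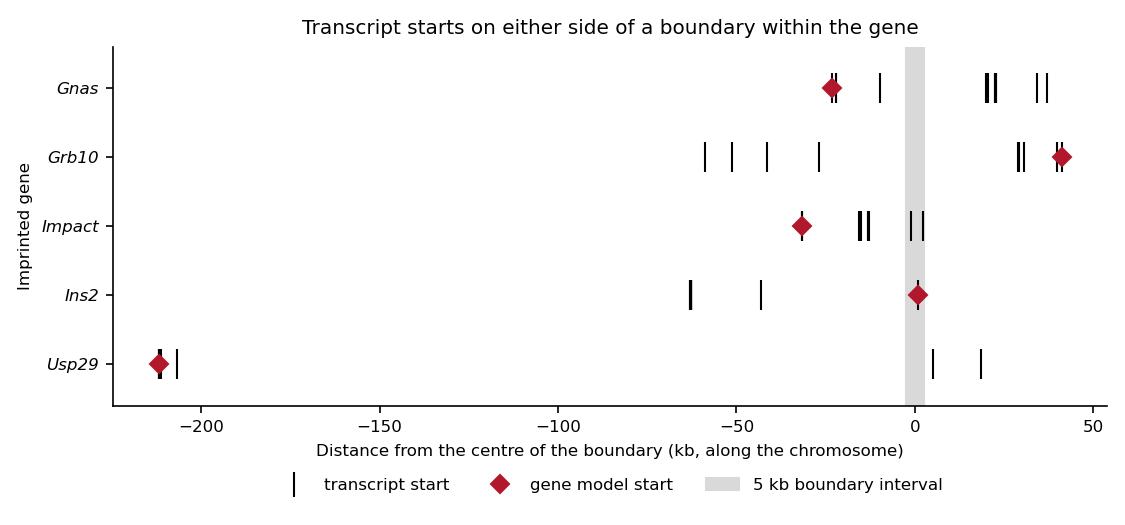
Annotated transcript starts (black ticks) and gene model starts (red diamonds) of 5 imprinted genes, by distance in kb from the centre of a boundary inside the gene, with the 5 kb interval in grey. Starts of Gnas and Grb10 lie on both sides of the interval, and 1 start of Ins2 and 2 of Impact lie in it.

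A longer list of 50 other genes reported as imprinted was read in the same way, and 49 had a gene model. Of these, 6 were within 10 kb of a boundary (12.2%, interval 5.73 to 24.2%), against 14.8% of all starts. Their median distance was 74.1 kb, above the 58.7 kb of all starts, whereas that of the 38 genes, 45.2 kb, was below it. The 5 nearest were Peg13 at 0 kb from a boundary scored 0.324, Klhdc10 at 1.87 kb (1.24), Commd1 at 2.62 kb (1.34), Jade1 at 4.27 kb (0.427) and Zim2 at 7.63 kb (0.491). Of the 49, 17 lay in a domain with 1 or more of the 38 genes. Among them were Kcnq1 and Th with Ascl2, and Rian and Mirg, further noncoding RNAs, with Dlk1 and Meg3. The list includes close neighbours of the 38 genes, such as Commd1, which hosts Zrsr1. No share over all genes was computed, so the count of 17 has no background. Nespas, the antisense RNA of Gnas, starts 9.57 kb from the Gnas boundary on the side of the Gnas gene start.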

How the data were processed

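The data were a boundary list from in situ Hi-C of 2 biological replicates in 1 group. Per the series' design text, both contact lists were combined into 1 matrix before boundaries were called; the build was GRCm38, per the submitters' processing notes. Each interval has a class and a score, deposited by the authors; which program called them, and with what window and cutoffs, is not given in the sources used here. A call on pooled replicates can rest on 1 of them, and depth is unknown. Scores served to describe, rank and filter within this list.

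Gene models came from GENCODE M21 and sequence from GRCm38.p6, of a strain other than FVB/NTac. Python 3.11.15, pandas 2.3.3 and scipy 1.17.1 were used. Measured were start-to-interval distance, domain sharing and exact motif matches on both strands; Wilson intervals (95%) accompany shares, and no test was run. Distance functions were tested on simulated data. The named genes were all 38 members, the nearest coding gene beyond closing boundaries, and the 5 nearest of another list. Kcnq1, Rian, Mirg and Nespas were named outside this rule, after their values were seen. No boundary value entered the choice rule, but the members and lists were chosen with earlier results of these data known. Alternatives were score filters, other starts, other distance limits, removal of close weaker boundaries and averaging by locus. RefSeq starts were added after seeing the data. Contact matrices, insulation and compartment tracks and expression were not analysed here.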

Additional observations from a re-analysis of the deposited data

How the results depend on the processing

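No paired analysis was possible because the deposited list pools both replicates and there is 1 group; leaving out a replicate was likewise impossible. The share of genes within 10 kb of a boundary (13.2%) ranged from 7.89 to 52.6% over 10 alternatives. It left its interval under 2 of them, in which the limit of 10 kb became 25 kb (28.9%) or 50 kb (52.6%). These limits take in more sequence by construction. Over all coding and lncRNA starts the lower quartile of the distance was 24.0 kb and the median 58.7 kb. The median distance (45.2 kb) stayed between 29.3 and 50.2 kb under 4 alternatives, and was 140 kb with strong boundaries only and 152 kb with boundaries at or above the median score, which have fewer boundaries by construction. The share of pairs in the same domain (76.2%) ranged up to 84.7% and was 47.6% for whole gene bodies, and the number of whole loci (6) was 5 to 7 except for whole gene bodies (2). RefSeq starts, chosen after seeing the data, gave 10.5% near a boundary, 76.2% of pairs and 7 whole loci, joining Ins2 to Igf2 and parting Snrpn from Ube3a. Single distances moved by more than 5 kb for 5 of 38 genes with RefSeq starts, 9 with any transcript start, 14 with strong boundaries only, 17 with boundaries at or above the median score, and 0 with interval midpoints. The interval width of 5 kb limits which side a start within it is on, the parental copies are not separated, and depth per replicate is unknown.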
